A study of Mus musculus with 12 samples.

Results

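The 40 genes described here mark states of macrophages and dendritic cells, the phagocytes that reside in skin or enter it from blood. They were chosen by symbol among the 52636 genes listed for 12 libraries of whole skin from BALB/c mice, and they fall into 6 groups by known role. There are 4 identity and growth factor genes, 12 genes of resident macrophages, 8 of recruited or lesion-associated macrophages, 3 Fc receptors, 5 genes of alternative activation and 8 genes of antigen presentation and dendritic cells. The mice formed 4 groups of 3: control, control given rapamycin (control + RAPA), LL37, and LL37 given rapamycin (LL37 + RAPA). LL37 is the active peptide of human cathelicidin and was injected into shaved back skin to provoke rosacea-like dermatitis, and rapamycin inhibits the kinase complex mTORC1. By the study's methods, mice of the BALB/c experiments were female. Those of the LL37 model were 8 weeks old and injected 2 times a day for 2 days with peptide or vehicle. The labels give no engineered allele in any group. The route of rapamycin for the sequenced mice is not named. The comparisons ask how these genes changed when LL37 was injected and how they differed when rapamycin was given with it.

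Skin holds a resident macrophage network that clears dying cells, iron and debris, and it depends on signals through the receptor Csf1r. Inflamed skin also takes in blood monocytes, which mature into macrophages with other gene programs: some make nitric oxide through Nos2, others express genes classically driven by interleukins 4 and 13, among them Arg1, Chil3 and Retnla. Dendritic cells and the Langerhans cells of the epidermis load peptides on MHC class II and carry the ligands Cd80 and Cd86 for T-cell costimulation.

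Libraries held between 15734559 and 23271784 counts on genes, so that 3 counts, taken as the floor of detection, equal 0.123 to 0.184 CPM. CPM are counts relative to the library total, adjusted by edgeR's TMM factors. The floor covers counting error only, whereas SDs and the standard errors (SE) of the edgeR fit include the spread between libraries. LL37 replicate 3 stood apart from the other libraries of its group on the leading principal component (64.4 against 133 and 129). Its summed CPM over 10 neutrophil genes was 305, against 2121 and 2906, and over 30 skeletal muscle genes it was 1023, against 50.3 and 55. Calls that rest on this library are given with and without it. The labels name no batch. Fewer cells of a type and less RNA per cell cannot be told apart in these bulk samples.

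The defining macrophage genes were present in every library. Adgre1, Cd68 and Csf1r averaged 37.3 ± 9.88, 45.1 ± 16.2 and 108 ± 26.8 CPM in control skin (mean ± SD over 3 libraries). Levels were also taken per kilobase of exons, with all annotated exons of a gene merged, for a rough comparison between genes. Merged exons can be longer than the transcript expressed, so the order is approximate. On this scale Lyz2 (lysozyme) had the highest level of the 40 in control skin, at 316 ± 61.6 CPM per kb. Cd74, the invariant chain of MHC class II, stood at 186 ± 15.7 and Retnla, a secreted resistin-like protein, at 133 ± 7.56. The class II chains H2-Eb1 and H2-Ab1 followed with 71.9 ± 7.24 and 47.4 ± 6.08 CPM per kb. Neighbours further down the order differed by less than their spread, such as the lectin Clec10a (22.2 ± 7.4), H2-Aa (19.4 ± 1.28) and Csf1r (18.7 ± 4.64). At the other end, Nos2 and the costimulatory ligand Cd80 were at 0.338 ± 0.0225 and 0.282 ± 0.148. The scavenger receptor Marco had at most 3 counts in any library, was not tested, and is not described further, which leaves 39 tested genes.

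**Figure D1:**
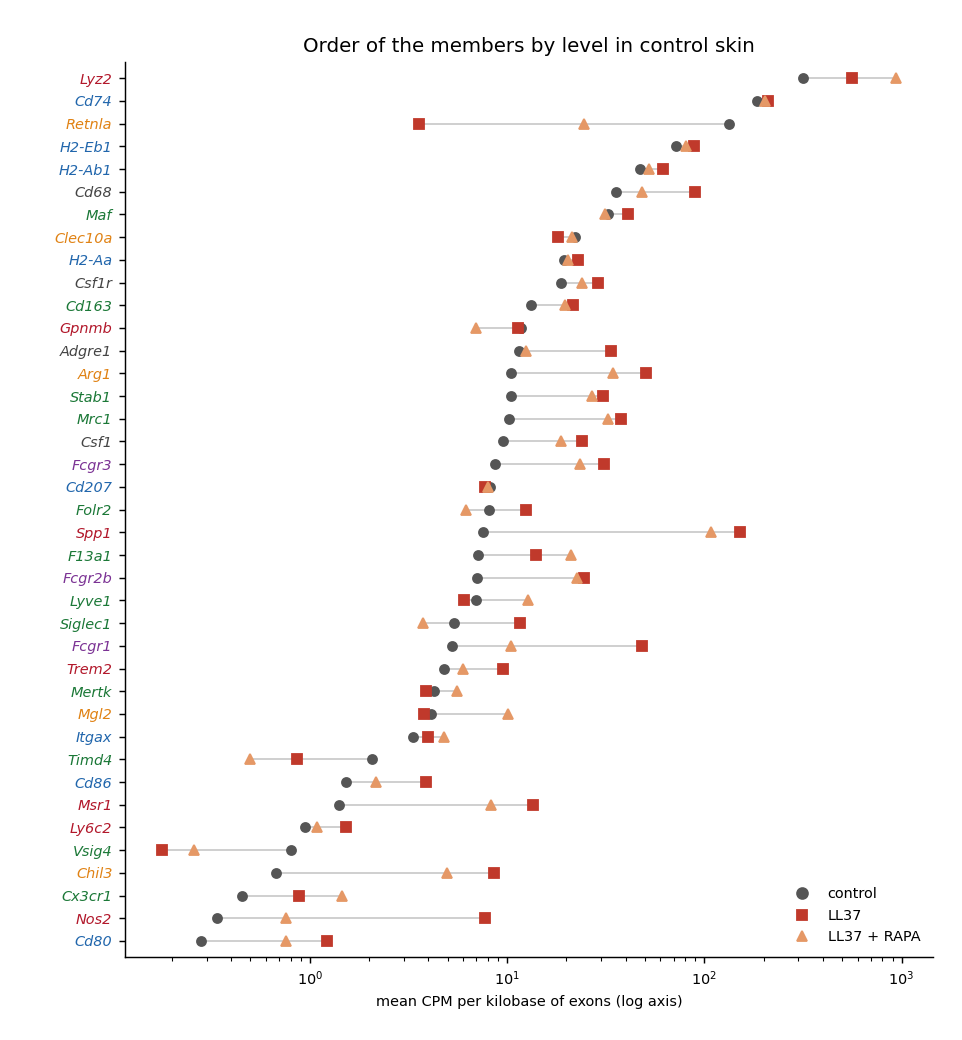
Mean level of 39 genes in control, LL37 and LL37 + RAPA skin, in CPM per kilobase of exons on a log axis, ordered by control (symbols: group means over 3 libraries, label colour: role). Retnla dropped from position 3 of 40 in control skin to 34 in LL37 skin, while Spp1 went from 21 to 3 and Fcgr1 from 26 to 8.

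In LL37 skin all 3 Fc receptors, 3 of 4 identity and growth factor genes and 3 of 7 tested recruited and lesion-associated genes were higher than in control skin, while Retnla, Timd4 and Vsig4 were lower. A gene was called at an edgeR adjusted p under 0.05 with an absolute log2 fold change above 1. By this rule 16 of the 39 genes rose and 3 fell, where 8.73% of all 17993 tested genes were called higher and 10.8% lower. The genes were chosen with earlier results of these data known, so such shares give a scale and no independent test. On the adjusted p alone, without the fold limit, 24 of the 39 passed, against 42.6% of all genes. The median log2 fold change of the 39 was 0.84, and that of all tested genes was 0.00 after rounding. Against LL37 + RAPA, LL37 skin had 5 of the 39 higher and 3 lower, with backgrounds of 4.33% and 5.8%. The adjusted p alone was passed there by 10 genes, against a background of 24.2%. In LL37 + RAPA skin compared with control, 12 rose and 2 fell, with backgrounds of 2.15% and 4.35%, and 15 passed on the adjusted p alone, against 14%. These 3 comparisons share libraries with each other, so that each is given by its own values. The same background shares are the scale for counts of called genes in the other gene lists below. Libraries of the groups compared did not overlap for the called genes, with the exceptions of Siglec1 in LL37 vs control and Retnla in LL37 vs LL37 + RAPA.

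**Figure D2:**
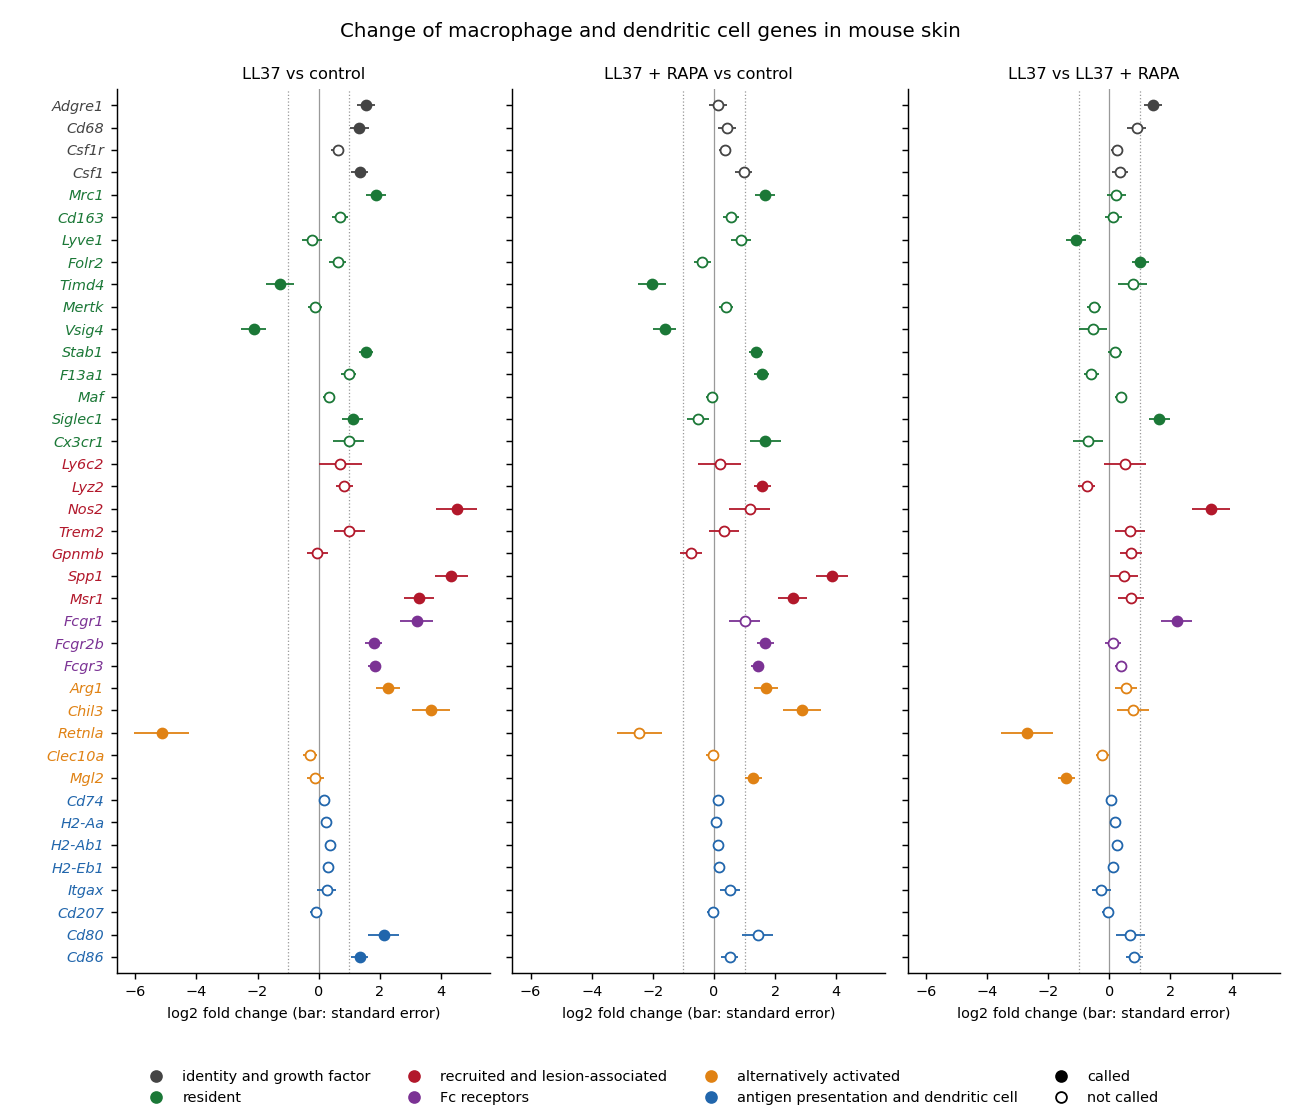
Log2 fold change of each tested gene in 3 comparisons, with its standard error as a bar, coloured by role (filled: called, open: not called, dotted lines: the fold limit). The left panel holds 16 filled points to the right and 3 to the left, and Retnla lies farthest left at -5.14.

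All 40 genes together took 0.231 ± 0.0382% of a control library and 0.448 ± 0.0364% of an LL37 library. The share was 0.438 ± 0.0954% in LL37 + RAPA and 0.192 ± 0.0232% in control + RAPA. LL37 and control libraries did not overlap, nor did LL37 + RAPA and control (two-sided exact permutation p = 0.1 in both, the smallest that 3 against 3 can give). LL37 and LL37 + RAPA did overlap (exact permutation p = 1), since LL37 + RAPA replicate 2 had the highest share of all libraries, at 0.548%. The alternatively activated group had close means, with 0.0172 ± 0.00239% in control and 0.0196 ± 0.00117% in LL37 skin (exact permutation p = 0.3), and within it Arg1 rose while Retnla fell. The identity and growth factor group was lower in LL37 + RAPA (0.0359 ± 0.00746%) than in LL37 (0.0531 ± 0.00251%) in every library (exact permutation p = 0.1).

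**Figure D3:**
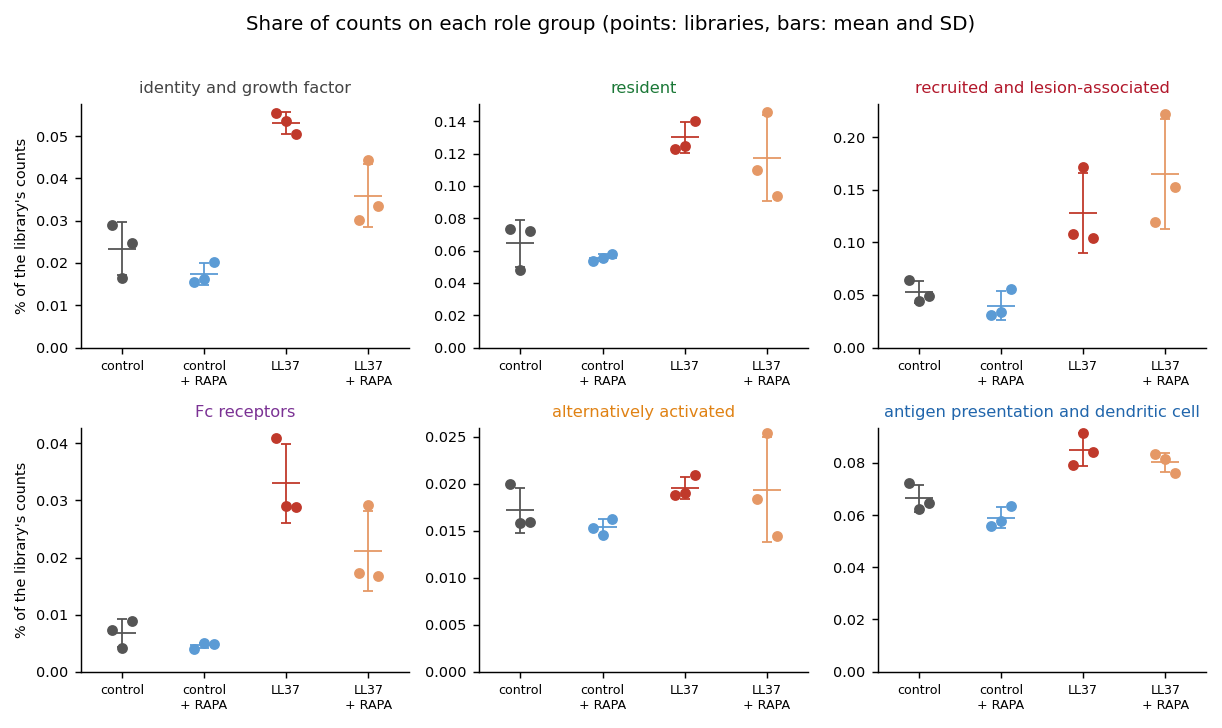
Percentage of each library's counts on the 6 role groups (points: libraries, bars: mean and SD over 3 libraries, axes from 0). The identity group is the panel in which all 3 LL37 + RAPA libraries lie between the control and the LL37 libraries.

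Among the identity and growth factor genes, Adgre1, which encodes a surface adhesion receptor used to define mouse macrophages, rose with LL37 and was near the control level with rapamycin. Its CPM were 47.3, 27.5 and 37.1 in control, 155, 86.6 and 83.7 in LL37, 30.6, 51.7 and 39.4 in LL37 + RAPA, and 16.7, 17.1 and 25.1 in control + RAPA. Every LL37 library was above every other. The log2 fold change was 1.54 ± 0.29 (SE) against control (edgeR adjusted p = 0.0014) and 1.42 ± 0.29 against LL37 + RAPA (edgeR adjusted p = 0.00634). Cd68, a lysosomal glycoprotein of phagocytes, had 62.1, 29.8 and 43.5 CPM in control, 121, 107 and 111 in LL37, and 42.1, 81.6 and 58.8 in LL37 + RAPA. It rose by 1.33 ± 0.30 with LL37 (edgeR adjusted p = 0.00453). Its difference of 0.89 from LL37 + RAPA was under the fold limit, although the libraries did not overlap. Without LL37 + RAPA replicate 2 this difference was called.

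Csf1, the growth factor that keeps macrophages alive, had 63, 35 and 53.2 CPM in control and 139, 161 and 82.2 in LL37 skin, a rise of 1.34 ± 0.27 (edgeR adjusted p = 0.00215). In LL37 + RAPA it had 84.5, 113 and 99.9 CPM, which overlapped LL37 and lay above control by 0.97, just inside the fold limit. Its receptor Csf1r differed less, with 131, 78.6 and 115 CPM in control and 140, 161 and 197 in LL37 (log2 fold change 0.62, edgeR adjusted p = 0.0298, not called). Il34, the other ligand of Csf1r, was singled out after its values were seen: its mean was 59.9 CPM in control, 30.3 in LL37 and 56.4 in LL37 + RAPA. The log2 fold change of Il34 with LL37 was -0.98 (edgeR adjusted p = 0.0212), also within the fold limit.

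Called changes among the 12 resident macrophage genes went in both directions: 3 rose with LL37, 2 fell and 7 were not called. As a sum, these genes took 0.0645 ± 0.0145% of counts in control, 0.13 ± 0.0095% in LL37 and 0.117 ± 0.0266% in LL37 + RAPA. Neither LL37 nor LL37 + RAPA libraries overlapped control (exact permutation p = 0.1 in both). With LL37, 8 of the 12 log2 fold changes were above 0 and 4 below, with a median of 0.65. The scavenger receptors Mrc1 and Stab1, which take up glycoproteins and modified lipoproteins, rose. Mrc1 had 94.9, 38.1 and 64 CPM in control, 244, 293 and 189 in LL37, and 173, 300 and 150 in LL37 + RAPA. It was higher than control by 1.88 ± 0.33 in LL37 (edgeR adjusted p = 0.000842) and by 1.66 ± 0.32 in LL37 + RAPA (edgeR adjusted p = 0.00514). Stab1 went from 128, 74 and 123 CPM to 238, 339 and 371, and to 259, 342 and 236 with rapamycin. Its log2 fold changes against control were 1.55 and 1.37. For both genes the LL37 and LL37 + RAPA libraries overlapped.

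Siglec1, sialoadhesin, which is also known as an interferon-induced gene, was also lower with rapamycin. Control libraries had 45.9, 18.9 and 51 CPM, LL37 libraries 106, 44.2 and 99.3, LL37 + RAPA libraries 25.5, 28.1 and 26.8, and control + RAPA libraries 14.8, 13.7 and 12.3. LL37 replicate 2 lay within the control range. Against LL37 + RAPA, LL37 was higher by 1.64 ± 0.35 (edgeR adjusted p = 0.00824), in all libraries. The rise over control was smaller, at 1.11 ± 0.35 (edgeR adjusted p = 0.0236), and without LL37 replicate 3 it was 1.00, no longer called. That call was also lost without LL37 replicate 1 or control replicate 2, within a range of 0.77 to 1.45 over all libraries left out. Folr2, a folate receptor of resident macrophages, had 17, 15.4 and 25.5 CPM in LL37 and 7.54, 12.8 and 8.52 in LL37 + RAPA. It had 16.1, 7.84 and 13.9 CPM in control and 6.29, 6.27 and 6.5 in control + RAPA. Its difference from LL37 + RAPA was 1.01 ± 0.28 (edgeR adjusted p = 0.0243), and without LL37 replicate 3 it was 0.75 and not called. This call was also lost without LL37 + RAPA replicate 1 or 3 (range 0.75 to 1.27 when a library was left out), with library size only, under both other filters, with the replicate block and in a fit of the compared groups alone.

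Timd4 and Vsig4, receptors with which tissue-resident macrophages bind dying cells and complement-coated particles, were low and fell. Timd4 had 4.96, 3.08 and 5.37 CPM in control, 2.34, 2.14 and 1.13 in LL37, and 0.949, 1.84 and 0.451 in LL37 + RAPA. The log2 fold change was -1.26 ± 0.45 in LL37 (edgeR adjusted p = 0.0391) and -2.03 ± 0.46 in LL37 + RAPA (edgeR adjusted p = 0.0125), the latter -2.67 without LL37 + RAPA replicate 2. The call in LL37 was lost without any of the LL37 libraries, control replicate 1 or 3, or LL37 + RAPA replicate 1 (range -1.49 to -0.96, the latter without LL37 replicate 3). Vsig4 was near 1 CPM in control (1.24, 1.28 and 1.05) and close to the floor in LL37 (0.327, 0.184 and 0.283) and LL37 + RAPA (0.474, 0.409 and 0.27). It fell by 2.13 on the log2 scale with LL37 (edgeR adjusted p = 0.00177), and by 1.62 in LL37 + RAPA (edgeR adjusted p = 0.0163). Without control replicate 1 or 2 or LL37 + RAPA replicate 2 or 3 the latter was not called (range -1.78 to -1.42).

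Lyve1, a hyaluronan receptor of perivascular macrophages and of lymphatic endothelium, had its highest group mean in LL37 + RAPA. The CPM were 25.4, 17.7 and 18 in control, 19, 20.6 and 13.3 in LL37, 45.6, 42.8 and 23.7 in LL37 + RAPA, and 14.6, 35.3 and 31.1 in control + RAPA. Replicate 3 of LL37 + RAPA lay within the ranges of control and control + RAPA. LL37 was lower than LL37 + RAPA by 1.08 ± 0.33 (edgeR adjusted p = 0.0338), a call lost without any of the LL37 libraries or LL37 + RAPA replicate 1 or 2 (range -1.33 to -0.92). Of 5 tested markers of lymphatic endothelium, 1 (Pdpn, which other skin cells also express) was called higher in LL37 than in LL37 + RAPA. The other 4 had log2 differences between -0.14 and 0.25, and their summed level with Pdpn was 106 to 226 CPM in LL37 and 80.2 to 109 in LL37 + RAPA. The part of lymphatic cells in the Lyve1 difference was not tested.

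F13a1 and Cx3cr1 were called only in LL37 + RAPA vs control, and are given here by library after their values were seen. F13a1, the catalytic subunit of clotting factor XIII made by macrophages, had 54.4, 39.4 and 50.9 CPM in control, 73.9, 102 and 109 in LL37, and 143, 190 and 95.8 in LL37 + RAPA. It was higher than control by 1.56 ± 0.24 in LL37 + RAPA (edgeR adjusted p = 0.00123) and by 0.98 in LL37, just inside the fold limit, which it passed without control replicate 1 or 3 or LL37 replicate 1. Cx3cr1, the fractalkine receptor, had 1.63, 2.21 and 8.1 CPM in LL37, so that a single library, replicate 3, was above control (2.43, 1.74 and 1.95). In LL37 + RAPA all 3 libraries were above control, at 4.7, 8.56 and 6.31 CPM (1.68 ± 0.51, edgeR adjusted p = 0.0482), a call lost without any library of control, LL37 + RAPA or control + RAPA (range 1.43 to 1.86). Without LL37 replicate 3, Cx3cr1 was called lower in LL37 than in LL37 + RAPA by 1.77 on the log2 scale, and with all libraries the difference was -0.70 and not called. The remaining resident genes, Cd163, Mertk and Maf, were called in none of the comparisons, with log2 fold changes between -0.50 and 0.69 in the 3 comparisons that involve LL37.

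Of the 7 tested recruited and lesion-associated genes, 3 rose with LL37 and none fell. Nos2, inducible nitric oxide synthase, rose with a wide spread between the LL37 libraries. It lies at chr11:78920787-78960254 on the plus strand of GRCm38. Its CPM were 1.51, 1.38 and 1.58 in control, 74.7, 19.4 and 8.2 in LL37, 2.8, 3.81 and 3.47 in LL37 + RAPA, and 1.36, 1.09 and 1.32 in control + RAPA. All LL37 libraries were above all others, and replicate 1 held most of the signal. The log2 fold change was 4.51 ± 0.68 against control (22.8-fold, edgeR adjusted p = 0.000353) and 3.34 ± 0.62 against LL37 + RAPA (10.1-fold, edgeR adjusted p = 0.00432). Without replicate 1 these values were 3.20 and 2.03, and both were still called. LL37 + RAPA lay above control in every library, but the difference of 1.17 was not called (edgeR adjusted p = 0.295).

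Spp1 (osteopontin, a secreted matrix protein of lesional macrophages, chr5:104435118-104441050, plus strand) and Msr1 (scavenger receptor A) rose in LL37 skin with and without rapamycin. Spp1 had 13.7, 5.74 and 17.8 CPM in control, 184, 431 and 136 in LL37, and 93.3, 241 and 201 in LL37 + RAPA. The log2 fold changes over control were 4.34 ± 0.54 and 3.85 ± 0.53, or 20.2-fold and 14.4-fold, and the former was 3.73 without LL37 replicate 2. Msr1 had 13.9, 3.54 and 9.32 CPM in control, 104, 107 and 48 in LL37, and 33.7, 82 and 42.2 in LL37 + RAPA, or 9.69-fold and 5.92-fold over control. LL37 and LL37 + RAPA overlapped for both genes, with log2 differences of 0.49 ± 0.46 and 0.71 ± 0.44 (edgeR adjusted p = 0.469 and 0.254). A p above the threshold does not show that the groups were equal. Exons of Spp1 overlap those of Gm42793 on the same strand, and reads there cannot be assigned to one of them.

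Lyz2, lysozyme of monocytes, macrophages and neutrophils, was called only in LL37 + RAPA vs control and is given by library after its values were seen. It had 503, 343 and 400 CPM in control, 606, 989 and 633 in LL37, and 926, 1699 and 1094 in LL37 + RAPA. The rise over control was 1.58 ± 0.28 in LL37 + RAPA (edgeR adjusted p = 0.00278) and 0.84 in LL37 (edgeR adjusted p = 0.0281), which is under the fold limit. Lyz2 made up 17.5% of the counts on the 40 genes in control skin, 16.9% in LL37 and 29.6% in LL37 + RAPA. Of its 50-base stretches, 15.4% also occur in other genes, mainly Lyz1, so that some reads could be split between both.

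Ly6c2, a monocyte surface protein, and the lipid receptors and lysosomal genes Trem2 and Gpnmb were not called in any comparison. Ly6c2 stayed between 0.542 and 6.07 CPM over all 12 libraries. Other genes, mainly Ly6c1, share 14.4% of its 50-base stretches, so its level is uncertain. Trem2 averaged 23.7 ± 9.54 CPM in control, 47.2 ± 19.8 in LL37 and 29.7 ± 6.27 in LL37 + RAPA. Gpnmb, which melanocytes also express, averaged 77.1 ± 28.9, 74.4 ± 8.29 and 45.6 ± 9.63 CPM in these groups. Of 5 tested melanocyte markers 3 fell with LL37, from a summed 39.7 to 48.1 CPM in control to 15.7 to 27.8, and their part in the Gpnmb values was not tested.

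**Figure D4:**
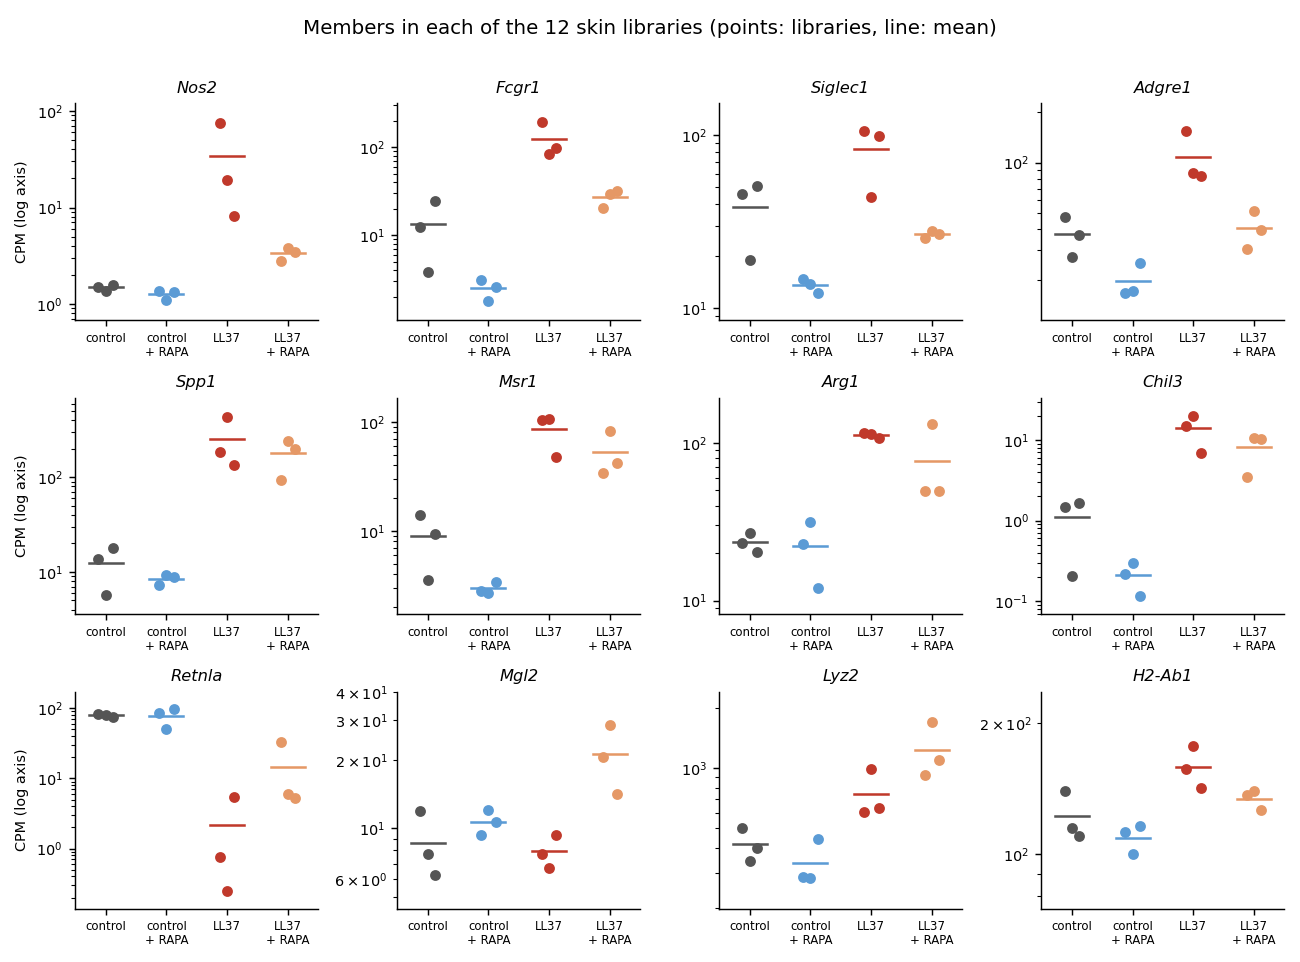
CPM of 12 genes in each of the 12 libraries on log axes (points: libraries, lines: group means). Nos2, Fcgr1, Siglec1 and Adgre1 are higher in every LL37 library than in any LL37 + RAPA library, whereas Spp1, Msr1, Arg1 and Chil3 overlap between these groups (Arg1 only through LL37 + RAPA replicate 2).

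All 3 Fc receptors, which bind IgG on immune complexes, rose with LL37, and only Fcgr1 was called between LL37 and LL37 + RAPA. Fcgr1, the activating high-affinity receptor (chr3:96282909-96293969, minus strand), had 12.3, 3.84 and 24.7 CPM in control, 192, 84.3 and 98.3 in LL37, 20.6, 29.1 and 31.6 in LL37 + RAPA, and 3.14, 1.78 and 2.59 in control + RAPA. LL37 stood above every other library. The log2 fold change was 3.20 ± 0.53 over control (9.18-fold, edgeR adjusted p = 0.000647) and 2.20 ± 0.50 over LL37 + RAPA (4.6-fold, edgeR adjusted p = 0.0105). Over control it ranged from 2.74 without control replicate 2 to 3.94 without control replicate 3. The call over LL37 + RAPA was lost when LL37 + RAPA replicate 1 was left out (2.04). Fcgr2b, the inhibitory receptor, had 47.6, 28.2 and 46.7 CPM in control, 160, 138 and 129 in LL37, and 106, 198 and 88.9 in LL37 + RAPA. Fcgr3, an activating receptor of lower affinity, had 17.1, 10.8 and 17.5 CPM in control, 58.1, 58.5 and 44.3 in LL37, and 36.1, 51 and 35.2 in LL37 + RAPA. Both were above control in LL37 (1.80 ± 0.28 and 1.83 ± 0.21) and in LL37 + RAPA (1.68 ± 0.28 and 1.43 ± 0.21), each called. Their differences between LL37 and LL37 + RAPA were 0.12 ± 0.27 and 0.39 ± 0.20 and were not called. Whether Fcgr1 responded differently from Fcgr2b and Fcgr3 was not tested. Fcgr2b shares 9.58% of the 50-base stretches of Fcgr3, and 4.38% of those of Fcgr2b occur in other genes, mainly Fcgr3.

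Neutrophils also express Fc receptors, lysozyme and Chil3, and their markers moved in the same libraries. All 8 tested neutrophil genes of a list of 10 were called higher in LL37 than in control, and 4 of 8 higher in LL37 than in LL37 + RAPA. The summed CPM ranged from 26.5 to 110 in control, from 305 to 2906 in LL37 and from 163 to 524 in LL37 + RAPA. Ly6g, a defining gene of the list, averaged 0.937 CPM in LL37 and was too low to test. LL37 replicate 3 had the lowest neutrophil sum of its group, 305. Chil3 (6.88 CPM), Nos2 (8.2), Msr1 (48), Cd80 (2.12), Fcgr2b (129) and Fcgr3 (44.3) were lower there than in the other LL37 libraries. Fcgr1 (98.3) and Lyz2 (633) lay between those libraries. Genes such as Csf1 (82.2), Mrc1 (189) and Arg1 (108) were also lowest in replicate 3, whereas Stab1 (371) and Trem2 (68.8) were highest in it. How much of each gene's RNA came from neutrophils was not tested. Among the lists for other cells, 1 of 6 tested T cell genes, 1 of 6 keratinocyte genes and none of 5 mast cell, 5 blood endothelium or 5 fibroblast genes was called higher with LL37, and none was called lower. All 28 tested skeletal muscle genes were called lower in LL37 than in control, and 27 lower in LL37 than in LL37 + RAPA. The summed CPM of the list were 43999 to 63664 in control, 50.3 to 1023 in LL37 and 3692 to 8058 in LL37 + RAPA. Whether a difference in the tissue sampled contributed to the values of the genes described here, such as Timd4, Vsig4, Lyve1 and Retnla, was not tested. No gene of the B and plasma cell list was abundant enough to test.

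Of the 5 alternatively activated genes, 2 rose with LL37, 1 fell and 2 were not called. Arg1, arginase 1, had 23.1, 26.8 and 20.4 CPM in control, 115, 114 and 108 in LL37, and 49.4, 132 and 49.4 in LL37 + RAPA. It rose by 2.26 ± 0.40 with LL37 (edgeR adjusted p = 0.000899), the least changed of the genes called in LL37 vs control when a library was left out (2.16 to 2.35). Chil3, a chitinase-like lectin, had 1.46, 0.205 and 1.63 CPM in control, 15.1, 20 and 6.88 in LL37, and 3.46, 10.6 and 10.2 in LL37 + RAPA, and rose by 3.67 ± 0.63 (edgeR adjusted p = 0.000773). For Chil3, 26.9% of 50-base stretches are shared, mainly with Chil4, so its level is uncertain. Both genes were also called above control in LL37 + RAPA, with 1.71 and 2.89 (Arg1 lost this call without control replicate 3, at 1.61, and was at 1.07 without LL37 + RAPA replicate 2, the library at 132 CPM). Both overlapped between LL37 and LL37 + RAPA, Arg1 only through LL37 + RAPA replicate 2. Without that library Arg1 was called higher in LL37 than in LL37 + RAPA.

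Retnla, at chr16:48842551-48844461 on the plus strand, moved opposite to Arg1 and Chil3. Control libraries had 83.5, 80.9 and 74.7 CPM, control + RAPA libraries 86.8, 50.2 and 98.2, LL37 libraries 0.762, 0.245 and 5.42, and LL37 + RAPA libraries 33.1, 5.94 and 5.23. Every library from LL37-injected skin was below every library from skin without LL37. The log2 fold change with LL37 was -5.14 ± 0.89 (35.3-fold lower, edgeR adjusted p = 0.000876), and -7.22 without LL37 replicate 3. LL37 was lower than LL37 + RAPA by 2.70 on the log2 scale (edgeR adjusted p = 0.04), with overlapping libraries. That difference was -4.81 without LL37 replicate 3 and -1.31, not called, without LL37 + RAPA replicate 1, the library at 33.1 CPM. The call was also lost without LL37 replicate 1 or 2, any control library, or control + RAPA replicate 1 or 3. LL37 + RAPA against control gave -2.44 (edgeR adjusted p = 0.0516), which missed the threshold, although the libraries did not overlap. It passed when any LL37 library or LL37 + RAPA replicate 1 was left out of the fit.

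Fat tissue is another known source of Retnla, and adipocyte genes were lower in LL37 skin: 5 of 5 were called lower than in control, and 5 of 5 lower than in LL37 + RAPA. Their summed CPM were 1080 to 2087 in control, 340 to 742 in LL37 and 2208 to 2411 in LL37 + RAPA. Retnla in LL37 + RAPA was 5.23 to 33.1 CPM. The part of adipocytes in the Retnla values was not tested.

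The promoter of Retnla is shown because the gene is a classical target of the interleukin 4 factor Stat6. It is the RefSeq window of build GRCm38.p6 from 250 bases before to 50 after the transcription start, at chr16:48842359-48842658 on the plus strand. It holds a palindrome of the Stat6 type, TTC and GAA with 4 unspecified bases between them (searched on both strands), 145 bases before the start and printed in capitals. This motif was present in 6.95% of all 32851 promoters and in 2 of the 33 promoters found for 28 of the 40 genes, those of Retnla and Itgax. A match of letters is not a binding site.

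Retnla: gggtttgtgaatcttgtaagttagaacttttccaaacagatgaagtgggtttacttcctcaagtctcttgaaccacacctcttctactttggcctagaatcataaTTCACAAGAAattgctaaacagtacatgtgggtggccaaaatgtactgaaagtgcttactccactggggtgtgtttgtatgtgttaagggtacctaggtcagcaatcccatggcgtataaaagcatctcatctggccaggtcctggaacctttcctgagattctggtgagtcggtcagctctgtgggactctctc

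Among 11 tested genes of interleukin 4 and 13 signalling, of a list of 12, 5 rose with LL37 and 2 fell. The background over all tested genes was 8.73% higher and 10.8% lower. Il4ra, the shared receptor chain, had the largest change of 2.88 (mean 50.7 CPM in control, 374 in LL37 and 129 in LL37 + RAPA). Ccl22, a chemokine of activated dendritic cells, rose by 2.53, and Socs1, a feedback inhibitor of cytokine signalling, by 1.97. The other called genes are named after their values were seen: Il13ra1 (1.55) and Il2rg (1.48) rose, and Tgm2 (-1.66) and Ear2 (-1.48) fell. Against LL37 + RAPA, 4 of the 11 were higher in LL37 and 1 lower (Ccl17, -1.45), with backgrounds of 4.33% and 5.8%. Il4 itself, singled out after its values were seen, averaged 1.03 CPM in control and in LL37, with a log2 fold change that rounds to 0, and Il13 was too low to test.

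The lectins Clec10a and Mgl2 bind galactose-type sugars on macrophages and dermal dendritic cells, and lie 18646 bases apart on chromosome 11 (Mgl2 at chr11:70130329-70137550, plus strand). Mgl2 had 12, 7.74 and 6.22 CPM in control, 7.73, 6.68 and 9.37 in LL37, 20.7, 28.6 and 14.2 in LL37 + RAPA, and 9.33, 12.1 and 10.7 in control + RAPA. All LL37 + RAPA libraries were above all others. Mgl2 was lower in LL37 than in LL37 + RAPA by 1.41 ± 0.28 (edgeR adjusted p = 0.00577) and higher in LL37 + RAPA than in control by 1.29 ± 0.28 (edgeR adjusted p = 0.00931). LL37 alone gave -0.12 ± 0.28. Clec10a stayed between 41.5 and 88.5 CPM in all libraries and was not called in any comparison (log2 fold changes of -0.28 with LL37, -0.05 with LL37 + RAPA and -0.23 between them). They share sequence, with 13.1% of the 50-base stretches of Mgl2 and 9.02% of those of Clec10a found in other genes.

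The antigen presentation group had 2 risers, the costimulatory ligands Cd80 and Cd86, and the other 6 genes were not called in any comparison. Cd86 had 6.31, 3.69 and 6.85 CPM in control, 17.4, 14.7 and 10.5 in LL37, and 6.07, 10.6 and 7.26 in LL37 + RAPA. It rose by 1.34 ± 0.28 with LL37 (edgeR adjusted p = 0.00243). Its difference from LL37 + RAPA was 0.82 (edgeR adjusted p = 0.0445, under the fold limit), and 1.00 without LL37 replicate 3, when it was called. The difference was also called without LL37 + RAPA replicate 2. Cd80 had 1.35, 0.41 and 1.37 CPM in control, 5.61, 5.94 and 2.12 in LL37, and 2.32, 4.26 and 1.8 in LL37 + RAPA. It rose by 2.12 ± 0.51 (edgeR adjusted p = 0.00599), and its value of 1.43 in LL37 + RAPA against control was not called.

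The MHC class II genes H2-Aa, H2-Ab1 and H2-Eb1, and the invariant chain Cd74, were not called in any comparison. H2-Ab1 had 140, 115 and 110 CPM in control, 157, 177 and 142 in LL37, and 137, 140 and 126 in LL37 + RAPA. Its log2 fold change with LL37 was 0.38 ± 0.11 (edgeR adjusted p = 0.0186) and that of H2-Eb1 was 0.30 ± 0.09 (edgeR adjusted p = 0.0185), both under the fold limit, with no overlap between LL37 and control libraries. H2-Aa and Cd74 had 0.25 ± 0.11 and 0.18 ± 0.09 (edgeR adjusted p = 0.088 and 0.138). With these standard errors, a change of 1 on the log2 scale in any of the 4 would have been several standard errors from the estimate. Class II genes vary between mouse strains, and how well reads of BALB/c mice align to the reference at these loci was not tested. The dendritic cell integrin Itgax and langerin (Cd207) of Langerhans cells were not called, with 0.26 ± 0.32 and -0.09 ± 0.20.

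Class II promoters carry a Y box with the letters CCAAT, next to the site of the factor RFX, and the windows of H2-Aa and H2-Eb1 are shown for it, since these genes lie 18043 bases apart in the same locus. They are at chr17:34287774-34288073 on the minus strand and chr17:34305617-34305916 on the plus strand of GRCm38.p6 (RefSeq). CCAAT on either strand (ATTGG on the other) is in capitals, 48 bases before the start of H2-Aa and 59 and 35 before that of H2-Eb1. The letters are common: 37.4% of all promoters and 14 of the 33 found for the 40 genes held them.

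H2-Aa: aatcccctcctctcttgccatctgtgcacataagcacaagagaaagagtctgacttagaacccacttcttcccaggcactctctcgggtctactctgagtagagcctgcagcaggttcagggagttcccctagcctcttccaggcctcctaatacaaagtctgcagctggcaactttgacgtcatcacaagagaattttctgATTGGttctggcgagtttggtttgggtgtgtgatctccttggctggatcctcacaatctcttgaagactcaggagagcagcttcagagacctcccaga

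H2-Eb1: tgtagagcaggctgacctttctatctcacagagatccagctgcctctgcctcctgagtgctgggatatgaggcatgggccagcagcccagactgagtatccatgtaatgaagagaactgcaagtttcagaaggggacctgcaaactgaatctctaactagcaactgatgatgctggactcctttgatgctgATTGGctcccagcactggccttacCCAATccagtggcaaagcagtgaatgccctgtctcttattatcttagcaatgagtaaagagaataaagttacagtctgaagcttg

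The PU.1 core GAGGAA, searched on both strands as the letters bound by the main macrophage lineage factor, was in 17 of these 33 promoters and in 28.3% of all. The count is of promoter windows: Fcgr3 and Ly6c2 (with overlapping windows) and F13a1 were each counted repeatedly.

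Of 12 genes that control class II transcription or load its peptides, 3 rose with LL37 and none fell (background 8.73% and 10.8%). The lysosomal proteases Lgmn and Ctss, which process antigen and the invariant chain, rose by 1.93 (mean 183 to 697 CPM) and 1.82 (109 to 384 CPM), and H2-Ob, a chain of a class II accessory molecule, by 1.19 (0.666 to 1.52 CPM). Lgmn and Ctss were also higher in LL37 than in LL37 + RAPA. Of 16 other dendritic and Langerhans cell genes, 5 rose with LL37 and 1 fell, beside the same background. Ccr7, the receptor with which dendritic cells leave tissue, rose by 3.20 (1.2 to 11 CPM), Cd40 by 2.53 (1.53 to 8.84 CPM), and Irf4, a dendritic cell and lymphocyte factor, fell by 2.36 (13.9 to 2.67 CPM). Against LL37 + RAPA, 3 of the 16 were higher in LL37 and none lower, with backgrounds of 4.33% and 5.8%.

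Of 19 tested genes of macrophage lineage and signalling, 12 rose with LL37 and none fell. Cd14, the lipopolysaccharide coreceptor, rose by 4.10 (mean 21.2 to 363 CPM). Pf4, a chemokine of platelets and macrophages, rose by 3.73 (16.4 to 217 CPM) and Aif1, an actin-binding protein of macrophages, by 2.41 (6.47 to 34.5 CPM). Against LL37 + RAPA, 3 of the 19 were higher in LL37, among them Aif1 by 1.94 and Pf4 by 1.13, while Cd14 was not called (1.61, edgeR adjusted p = 0.107). In LL37 + RAPA vs control, 5 of the 19 rose. Background shares of genes called higher in these 3 comparisons were 8.73%, 4.33% and 2.15%, in the order given.

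Rapamycin without LL37 gave no called gene: 0 of the 39, and 0% of all 17993 tested genes. At an unadjusted edgeR p under 0.05 there were 7 of the 39 and 1556 of all genes (8.65%), and DESeq2 called 52 genes, among them Fcgr1 and Siglec1. Of the 39, 35 had log2 fold changes below 0, with a median of -0.25 beside -0.01 for all tested genes. Fcgr1 had the lowest value, -2.44 ± 0.58 (edgeR adjusted p = 0.382), and Siglec1 had -1.50 ± 0.36 (edgeR adjusted p = 0.382). In both, all 3 control + RAPA libraries were below all 3 control libraries. This also held for Folr2 (-0.99 ± 0.29), Adgre1 (-0.93 ± 0.29), Msr1 (-1.59 ± 0.52) and Nos2 (-0.25 ± 0.74). Full separation of 3 libraries from 3 has a two-sided exact permutation p of 0.1. How often it occurred among all tested genes was not counted, so it shows no effect of rapamycin on these genes.

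The interaction asks whether the change with LL37 differed between mice with and without rapamycin. None of the 39 was called, against 2.38% of all tested genes. At an unadjusted edgeR p under 0.05 there were 4 (Nos2, Lyz2, Retnla and Mgl2) among the 39, and 4049 of all genes (22.5%), and DESeq2 called 1008 genes, among them Nos2. Nos2 had -3.09 ± 0.96 (edgeR adjusted p = 0.0933), a smaller rise with LL37 in mice given rapamycin. Lyz2, Mgl2 and Retnla had 1.05 ± 0.39, 1.10 ± 0.39 and 2.72 ± 1.11 (edgeR adjusted p = 0.14, 0.132 and 0.175). Fcgr1, Siglec1, Adgre1 and Folr2 had lower means with rapamycin both with and without LL37. Their interaction values were 0.24 ± 0.75, -0.13 ± 0.50, -0.49 ± 0.41 and -0.02 ± 0.40. Without LL37 replicate 3, Nos2 (-3.56), Retnla (4.83) and Cx3cr1 (1.93) were called. Of the 4 other gene lists, 1 gene was called in the interaction: Ly75, an uptake receptor of dendritic cells, averaged 3.05 CPM in control, 10.3 in LL37, 4.41 in LL37 + RAPA and 3.24 in control + RAPA.

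**Figure D5:**
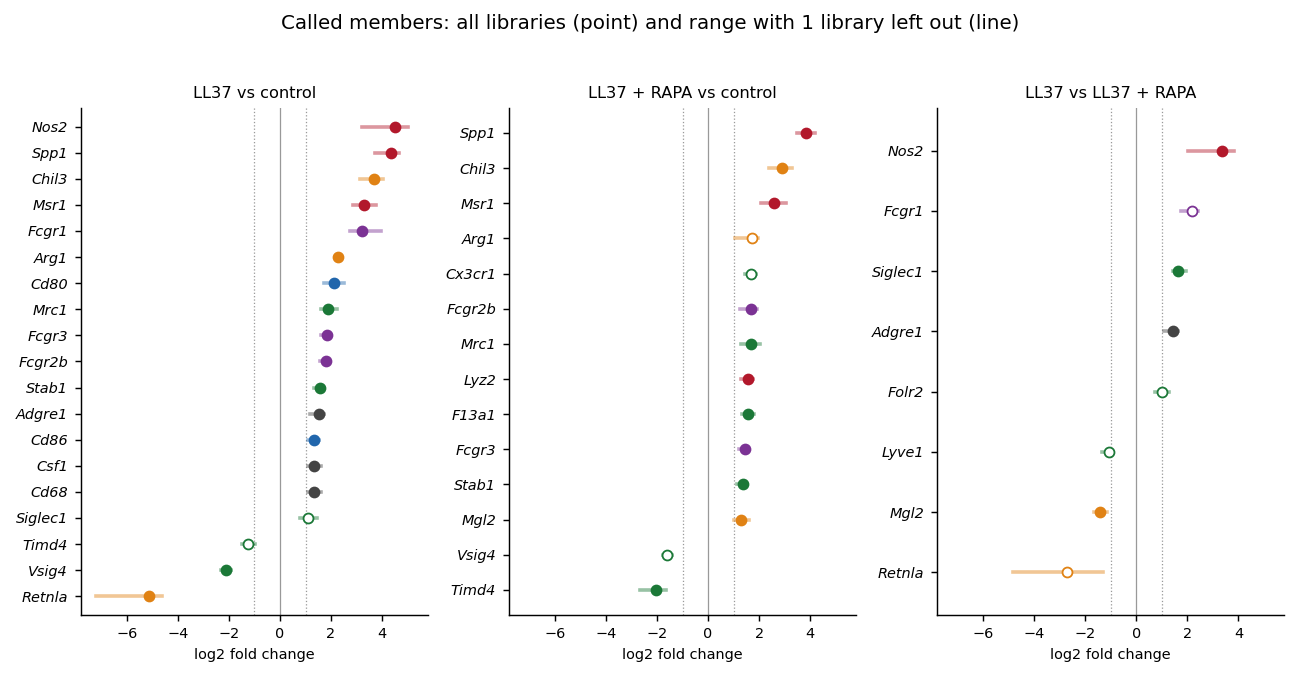
Log2 fold change of each called gene in 3 comparisons, with all libraries (point) and its range when each of the 12 libraries was left out in turn (line). Open points lost the call under at least 1 alternative, either of processing or with a library left out. In LL37 vs control 17 of 19 points are filled, in LL37 vs LL37 + RAPA 4 of 8, and in LL37 + RAPA vs control 11 of 14.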

How the data were processed

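Whole skin (TRIzol RNA, Illumina TruSeq kit) was sequenced in 12 libraries, 3 from each of 4 groups, described as independent biological samples. The authors deposited raw read counts per Ensembl gene, without normalization or pooling. The paper names HTSeq for counting, whereas the submitters' processing notes list HISAT2 2.0.5, featureCounts 1.5.0-p3, StringTie 1.3.3b and DESeq2 1.16.1 with build mm10. Which counter made the deposited counts, and whether counting used strand, is not given in the sources used here, so genes with exons that overlap on opposite strands (Csf1r, Folr2, Stab1, F13a1, Maf, Cx3cr1 and Fcgr2b) may hold reads of a neighbour. Symbols, exons and lengths come from GENCODE M21 (GRCm38, the same assembly as mm10), which named 52403 of 52636 genes, and promoters come from RefSeq (GRCm38.p6).

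All 12 libraries were fitted together in R 4.3.3 with edgeR 4.0.16 (TMM, filterByExpr by group, quasi-likelihood F-test), with Benjamini-Hochberg adjustment over the 17993 tested genes. Fold changes use a prior count of 0.125. Shares of counts were compared by exact permutation tests. The alternatives were library size only, DESeq2 size factors, removal of a list of 30 skeletal muscle genes, 2 other filters, DESeq2 1.42.0, the adjusted p alone, a fit of only the groups compared, a replicate block, and fits without each library. The test was tested on simulated data. The 40 genes and all lists were chosen with earlier results of these data known. Values in every library are given for genes called in LL37 vs control or LL37 vs LL37 + RAPA, and from each other list at most the 3 called genes with the largest change with LL37, with exceptions stated. Shared sequence was counted as 50-base stretches found in transcripts of other genes. Protein sequences and promoters of 12 of the genes were not used here.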

Additional observations from a re-analysis of the deposited data

How the results depend on the processing

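Of the 19 genes called in LL37 vs control, 17 were called under every alternative that could fit them, of the 8 in LL37 vs LL37 + RAPA 4 (Adgre1, Siglec1, Nos2 and Mgl2), and of the 14 in LL37 + RAPA vs control 11. No called value reversed. Vsig4, Chil3, Retnla and Cd80 could not be fitted with a filter of 10 counts in every library. The count of called genes in LL37 vs LL37 + RAPA ranged from 4 to 10 when a library was left out, with 4 without LL37 + RAPA replicate 1, where Fcgr1, Folr2, Lyve1 and Retnla were lost. It was 10 without LL37 + RAPA replicate 2, where Arg1, Cd68 and Cd86 were gained and Lyve1 was lost. In control + RAPA vs control DESeq2 called 2 genes, Fcgr1 and Siglec1. For the interaction, DESeq2 and a filter of 1 count in total each called 1, Nos2, and leaving out a library gave 0 to 3, with 3 without LL37 replicate 3 (Nos2, Retnla and Cx3cr1). The causes were not tested. With the replicate block, LL37 was called against control for 18 genes and against LL37 + RAPA for 6, and LL37 + RAPA against control for 13. Of 3026 values of uncalled genes over the alternatives, 32 became called and 124 changed sign. The replicate numbers are shared numbers only: deviations of same-numbered libraries correlated between -0.188 and 0.263, and 5 of 12 libraries correlated best with a library of their own number. Genes near 1 CPM, such as Vsig4, Timd4, Chil3 and Cd80, rest on few counts in some groups. Folr2 in LL37 vs LL37 + RAPA lost its call under 8 of 20 alternatives.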
